A study of Homo sapiens with 6 samples.

Results

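The cytosolic ribosome is built from a large and a small subunit, each made of ribosomal RNA and a set of proteins that growing cells make in near-equal amounts. The genes described here are the ribosomal protein genes of that particle, taken as the probe sets whose symbol was RPL or RPS followed by a digit, or RPLP0, RPLP1, RPLP2 or RPSA. Symbols of the ribosomal protein S6 kinases (RPS6K) were left out, and the brightest probe set stood for a gene that had several. The rule found 59 of the 17687 genes measured, each with 1 probe set. Of these, 45 are canonical ribosomal proteins, 26 of the large subunit (RPLP1 of the acidic stalk among them) and 19 of the small subunit. The other 14 are 7 paralogs of large subunit proteins, 3 paralogs of small subunit proteins, 3 readthrough genes (RPL17-C18orf32, RPL36A-HNRNPH2 and RPS10-NUDT3) and RPS19BP1, whose product is a nucleolar partner of RPS19 and no part of the ribosome. A list of the 80 canonical proteins held 46 measured genes, namely these 45 and FAU, which gives the small subunit protein S30 fused to a ubiquitin-like protein. The other 34, including RPLP0, RPLP2 and RPSA, were not analysed here.

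Transcripts were measured on single-colour arrays in 6 samples of 4175 cells, a derivative with lung tropism of MDA-MB-231, a human breast cancer line without hormone receptors. Cells of 3 samples received a control siRNA (sicontrol 1 to 3) and cells of the other 3 an siRNA directed at PGC-1alpha (siPGC1alpha 1 to 3). The siRNA was added 24 hours after plating and left for 48 hours, and 10 ng of RNA per sample was amplified and labelled. All 6 samples thus share the line and an siRNA treatment, and the line is 1 cell population grown in culture. The question of the comparison was which transcripts change when PGC-1alpha is targeted. Nothing in the labels says that the numbered replicates came from separate cultures. A p-value here therefore reflects only the scatter among these arrays, and that scatter may be technical. The limma fit also draws each gene's variance toward that of all genes. Its standard errors, intervals and p-values thus do not measure a gene's own scatter alone.

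Ribosomal protein messages are among the most abundant in a cell, and most begin at a cytosine followed by an unbroken run of pyrimidines, the 5′ terminal oligopyrimidine (TOP) motif. The motif lets the cell control their translation together through the kinase mTOR and the RNA-binding protein LARP1. Ribosome production is raised in many tumours, and MYC and mTOR signalling drive it. PGC-1alpha, the product of PPARGC1A, is a transcriptional coactivator best known for mitochondrial biogenesis.

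The start sites of members that are described below are shown first, because a pyrimidine run at the first base is frequent among these genes, though some lack it. Each sequence holds 10 bases before and 20 bases from the annotated start, 5′ to 3′ on the transcribed strand, and capitals mark the pyrimidine run that opens at the first transcribed base. The sequences are from RefSeq, assembly GRCh38.p14. The lines from RPS24 to RPS29 belong to the members with the largest differences on siPGC1alpha replicate 1, with both annotated starts of RPL6, and those from RPS14 to RPL31 to canonical members with the smallest, while the last is RPL10L, a testis-expressed paralog.
RPS24, chr10:78033853-78033882, plus strand: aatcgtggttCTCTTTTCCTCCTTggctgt
RPL14, chr3:40457329-40457358, plus strand: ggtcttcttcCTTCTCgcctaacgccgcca
RPL26, chr17:8383174-8383203, minus strand: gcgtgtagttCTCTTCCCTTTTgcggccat
RPS23, chr5:82278335-82278364, minus strand: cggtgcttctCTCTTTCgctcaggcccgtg
RPL6, chr12:112411423-112411452, minus strand: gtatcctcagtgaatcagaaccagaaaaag
RPL6, chr12:112409266-112409295, minus strand: gacggcgcgtgcactgtgttcctggtcctg
RPS29, chr14:49598691-49598720, minus strand: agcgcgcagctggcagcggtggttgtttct
RPS14, chr5:150449720-150449749, minus strand: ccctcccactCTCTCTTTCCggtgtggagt
RPS18, chr6:33272065-33272094, plus strand: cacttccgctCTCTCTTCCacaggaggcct
RPL9, chr4:39458903-39458932, minus strand: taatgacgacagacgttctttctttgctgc
RPLP1, chr15:69452808-69452837, plus strand: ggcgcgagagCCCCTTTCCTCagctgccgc
RPS27, chr1:153990752-153990781, plus strand: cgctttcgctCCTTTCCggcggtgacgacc
RPL31, chr2:101002279-101002308, plus strand: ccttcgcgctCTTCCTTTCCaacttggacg
RPL10L, chr14:46651762-46651791, minus strand: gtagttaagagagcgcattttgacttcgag

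RefSeq windows of 250 bases before to 50 bases after the start were at hand for 51 of the 59 members, 41 of them canonical, and for 14250 of all genes. A C at the annotated start followed by at least 4 further C or T, read on the transcribed strand only, opened 33 of the 51 members (64.7%) and 30 of the 41 canonical ones (73.2%), compared with 868 of all genes (6.09%). Among the 10 members that are not canonical it opened 3 (30.0%). The other motifs searched were rarer in the members than the pyrimidine run was. CCGGAAG, the core bound by ETS-family factors, searched on both strands, lay in 16 members (31.4%) and in 16.6% of all windows, and its reverse strand reading can overlap the pyrimidine run. AAGGTCA, the element of the oestrogen-related receptors that PGC-1alpha coactivates, also searched on both strands, lay in 1 member, RPL34 (1.96%), and in 4.25% of all windows. These matches describe letters in the windows and not binding.

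PPARGC1A, the targeted gene, was read as a check of the labels. It read 6.45, 6.49 and 6.49 on the control arrays and 7.95, 6.52 and 6.47 on siPGC1alpha 1, 2 and 3, on the deposited log2 scale. Without replicate 1 the difference was 0.019 (SE 0.071, limma adjusted p = 0.9998), and with all 6 arrays it was 0.50 (SE 0.44, limma adjusted p = 0.663). The transcript thus showed no fall under the siRNA on any of the 3 arrays. Its control signals lay below the median of the named probe sets on those arrays (7.28 to 7.29). They were near the median of the unmapped transcript probe sets (6.52 to 6.62). Without a detection call it is not known whether a fall could show at this level. The group name is used below only as a label. Of the markers of the line, 8 of 8 were measured, with control means from 9.40 (EGFR) to 12.80 (VIM). The epithelial marker CDH1 was at 3.97, and the hormone receptor genes PGR and ESR1 were at 2.76 and 5.99. FOXA1, likewise listed as weak or absent in this line, was at 5.96. EPCAM and GATA3, also epithelial, were at 7.43 and 7.83, near the middle of all genes. Replicate 1 stood apart from the other 5 arrays: across all genes it correlated with them at r = 0.585 to 0.604, and they correlated with one another at 0.995 to 0.996. Each result that rests on it is given with and without it. All 12 measured markers of leukocytes, endothelium, red cells and lung epithelium were higher on it, by 0.23 to 1.82, from control means of 3.79 to 7.75. Over all genes the median difference on it was 0.61, and 59.3% of genes lay above all other 5 arrays. The part of these markers in the results on ribosomal protein genes was not tested.

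**Figure D1:**
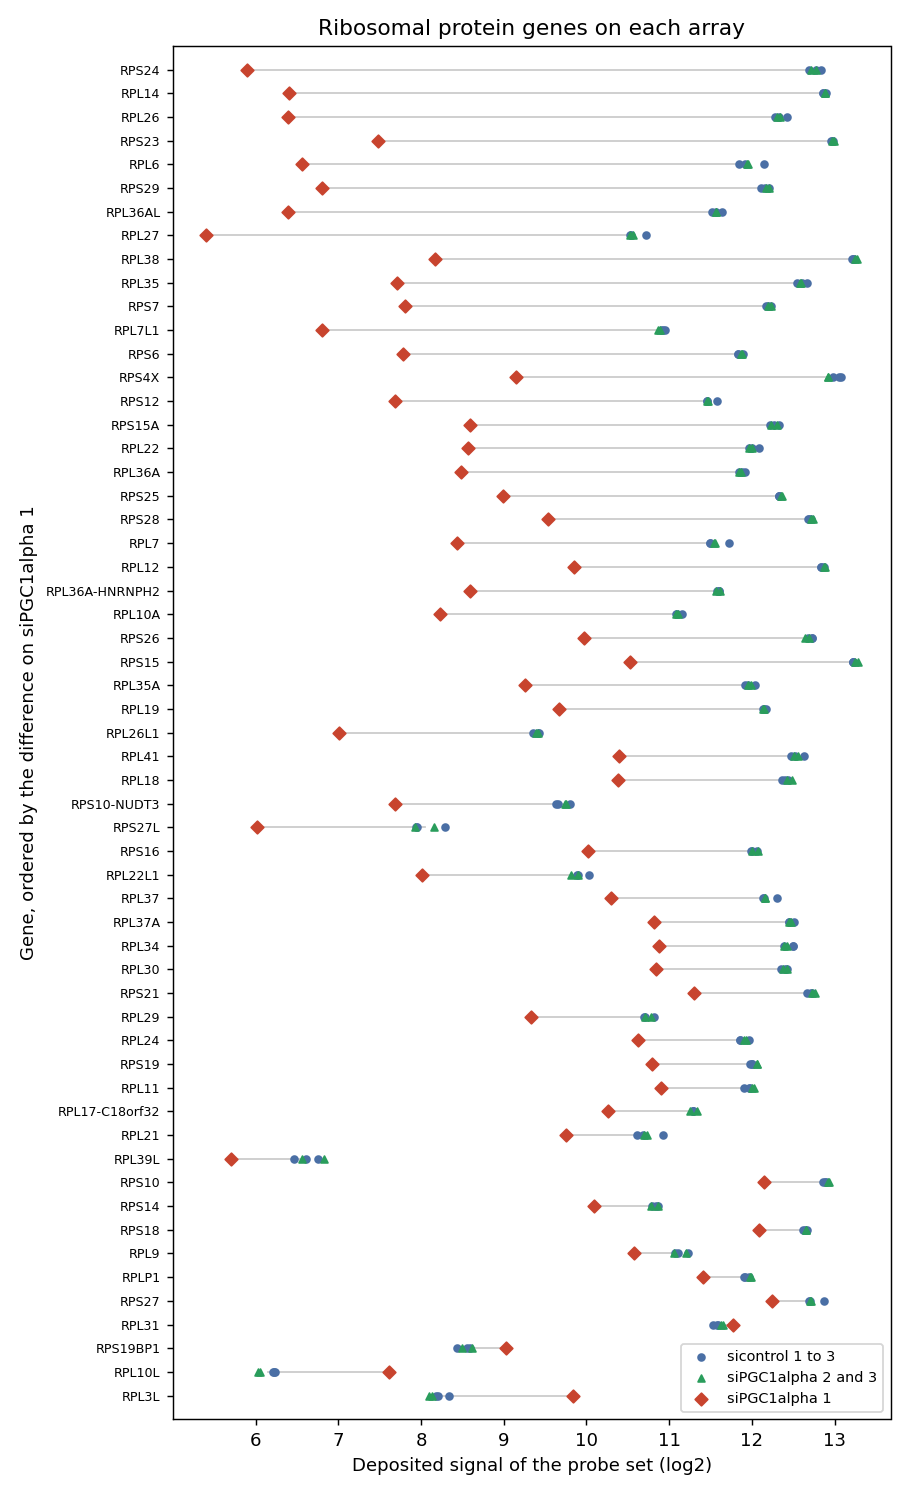
Deposited log2 signal (x axis) of 57 ribosomal protein genes (y axis, ordered by the difference on siPGC1alpha 1) on each array, with circles for sicontrol 1 to 3, triangles for siPGC1alpha 2 and 3 and diamonds for siPGC1alpha 1. The 5 similar arrays coincide for nearly every gene, while the differences of siPGC1alpha 1 from their mean span -6.86 (RPS24) to 1.64 (RPL3L), and the 2 Y-linked paralogs are not drawn.

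Outside replicate 1, the ribosomal protein genes were among the brightest and the most closely repeated of the arrays. The median signal over the 59 members was 12.04, 11.97 and 11.95 on sicontrol 1, 2 and 3, and 12.00 and 11.99 on siPGC1alpha 2 and 3. The canonical members ranked, at the median, at the 99.5th percentile of all genes on these 5 arrays, with means from 10.58 (RPL27) to 13.24. Signals of different probe sets do not rank transcripts, since each probe set has its own binding strength. The standard deviation of a member within its group, pooled over the 5 arrays, had a median of 0.040 and reached at most 0.19, beside a median of 0.10 over all genes. Over the translation factors described below, which are also bright, the median was 0.056. The spread of all genes of like brightness was not compared. For the canonical members alone the median was 0.038. Ribosomal protein genes have many near-identical processed pseudogenes, so cross-hybridisation between copies cannot be told apart from the signal of the gene. The probe set identifier carried the chromosome RefSeq gives in 58 of 59 members. The exception was RPL21, whose identifier names chromosome 10 while RefSeq places the gene on chromosome 13, and its values are uncertain for that reason.

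Across the labelled groups no ribosomal protein gene passed the test. With all 6 arrays, limma called 0 of 59 members at an adjusted p under 0.05 in either direction, beside 0.0% of all genes, and the lowest adjusted p of a member was 0.663. At an unadjusted p under 0.05 the count was 0 of 59, beside 0.0113% of all genes higher and 0.00565% lower. Without replicate 1, limma again called 0 of 59, beside 0.0% of all genes higher and 0.0% lower, and every member's adjusted p was 0.9998. Here 1 member, the paralog RPL10L, had an unadjusted p under 0.05 and lay lower, beside 2.34% of all genes lower, while 0 members lay higher, beside 2.11%. In bulk RNA, fewer cells and less RNA per cell cannot be told apart.

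The 5 similar arrays bounded the differences narrowly. All 59 members had a 95% confidence interval of the difference that lay within 0.5 either way on the log2 scale, as did 89.7% of all genes. The member intervals reached from -0.35 to 0.37, and those of the canonical members from -0.29 to 0.24. The median half-width was 0.17 for members and 0.22 for all genes. The median difference was -0.00034 over the members, 0.0025 over the canonical ones and 0.0080 over all genes. The difference lay above 0 in 29 of 59 members (49.2%) and in 53.5% of all genes. With all 6 arrays the median difference of the members was -0.72, that of all genes was 0.19, and the median half-width of the members' intervals was 1.49. In that fit 6 of 59 members lay above 0 (10.2%) beside 61.8% of all genes, and no member had an interval within 0.5 either way, beside 0.0565% of all genes. The members' difference of the labelled groups thus came to near 0 once 1 array was left out.

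**Figure D2:**
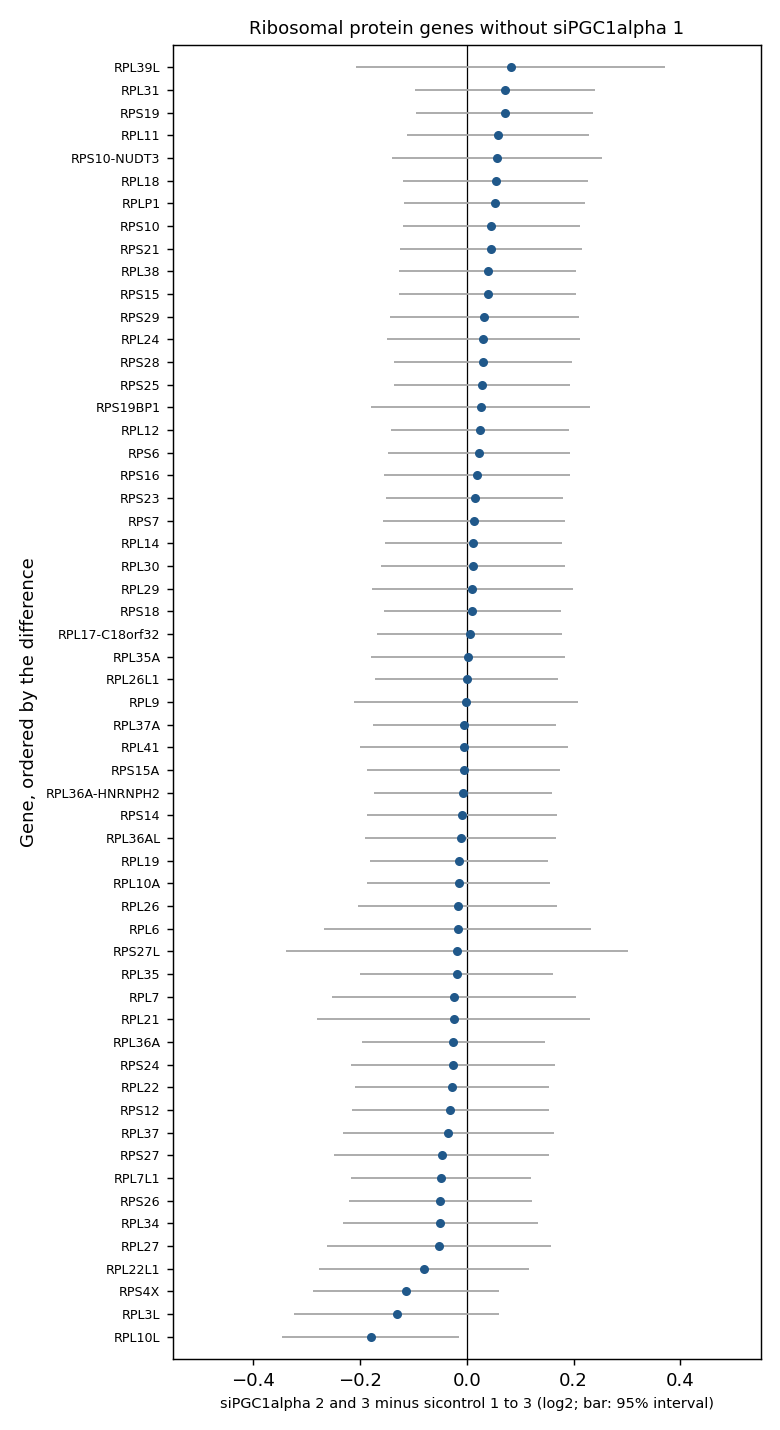
Difference of siPGC1alpha 2 and 3 from sicontrol 1 to 3 (x axis, log2) for 57 ribosomal protein genes (y axis), with points for the limma estimate and bars for its 95% confidence interval. The estimates run from -0.18 (RPL10L) to 0.082 (RPL39L), and the bar of RPL10L alone misses 0.

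The members with the smallest unadjusted p in each direction follow, with the Y-linked RPS4Y1 and RPS4Y2 left out of the ranking, although RPS4Y1 had the smallest p among those that lay higher and a larger difference than the genes named here. RPS19, the small subunit protein most often mutated in Diamond-Blackfan anaemia, read 11.99, 11.98 and 12.00 on the controls and 12.06 and 12.07 on siPGC1alpha 2 and 3. The groups did not overlap, and the difference was 0.071 (SE 0.069, limma adjusted p = 0.9998). Its own pooled standard deviation was 0.0091, so this SE comes largely from the variance shared over all genes. RPL31, of the large subunit near the exit of the peptide tunnel, read 11.57, 11.53 and 11.59 against 11.65 and 11.63, a difference of 0.072 (SE 0.071, limma adjusted p = 0.9998). RPL11, which with RPL5 and 5S ribosomal RNA binds MDM2 when ribosome assembly fails, differed by 0.059 (SE 0.071). RPL18, another large subunit protein, differed by 0.054 (SE 0.073). These canonical members lay higher by 0.072 at most on the log2 scale.

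RPL10L gave the lowest unadjusted p among the members. It read 6.21, 6.22 and 6.23 on the controls and 6.05 and 6.03 on siPGC1alpha 2 and 3. The groups were apart, with a difference of -0.18 (SE 0.070, 95% interval -0.35 to -0.014, limma adjusted p = 0.9998). RPL3L, a paralog of RPL3 found in heart and skeletal muscle, read 8.20, 8.34 and 8.19 against 8.10 and 8.13 (difference -0.13, SE 0.081). RPS4X, the X-linked small subunit protein that has copies on the Y chromosome, read 12.98, 13.05 and 13.07 against 12.92 and 12.92 (difference -0.11, SE 0.073). RPL22L1, a paralog of RPL22, differed by -0.080 (SE 0.082), and its groups overlapped. Groups did not overlap for 9 members that lay higher (15.3%), beside 11.3% of all genes, and for 4 that lay lower (6.78%), beside 8.42%. These shares are close to those of all genes. With all 6 arrays, 1 member lay higher without overlap, beside 5.42% of all genes, and 2 lay lower, beside 1.85%.

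Replicate 1 of siPGC1alpha read most ribosomal protein genes far lower than the other 5 arrays did, and by very unequal amounts. Of the 59 members, 45 were lower by at least 1 on the log2 scale (76.3%), beside 25.4% of all genes. At least 2 lower were 34 members (57.6%), beside 14.9%, and at least 4 lower were 13 (22.0%), beside 2.93%. Higher by at least 1 were 3 members (5.08%), none of them canonical, beside 39.2% of all genes. The array lay below all other 5 for 53 members (89.8%), 44 of the 45 canonical ones among them, beside 36.4% of all genes, and above all 5 for 5 members (8.47%), beside 59.3%. The median difference was -2.15 over the members and -2.72 over the canonical ones, whereas it was 0.61 over all genes. A single array has no replicate, so these are descriptions without a test.

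Brightness moved with this difference. Among the 1592 genes with a mean of at least 10 on the other 5 arrays, 73.9% were lower by at least 1 on replicate 1 and 17.7% by at least 4, with a median of -2.15. The 49 members in that range were lower by at least 1 in 83.7% and by at least 4 in 26.5%, with a median of -2.73. The members' share is thus closer to that of these bright genes than to that of all genes, although the canonical members sit at the upper end of that range.

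**Figure D3:**
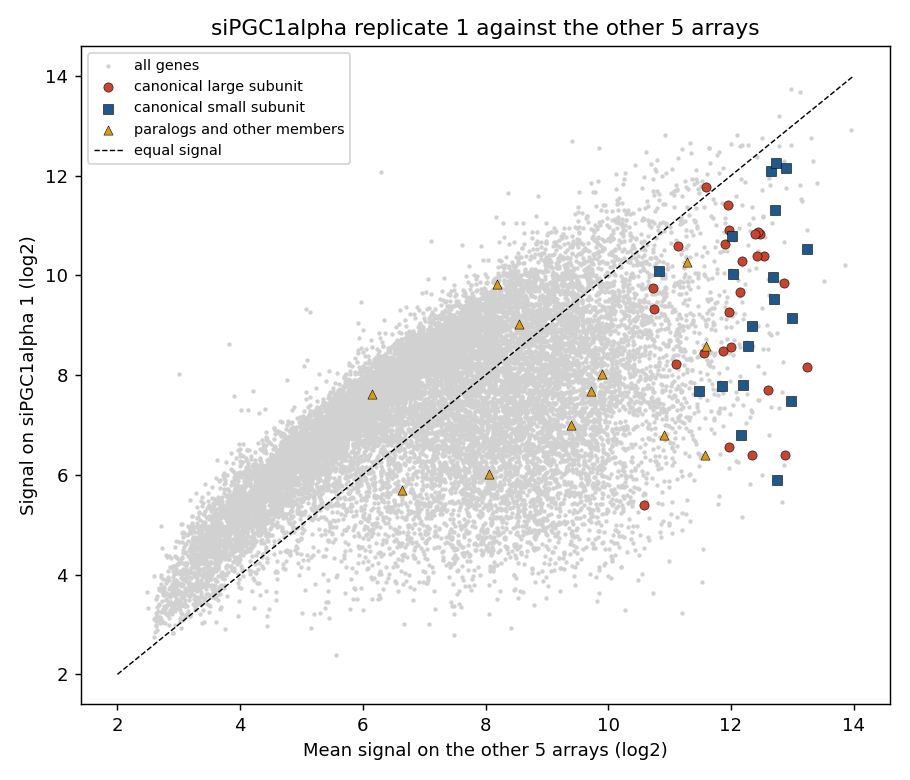
Log2 signal on siPGC1alpha 1 (y axis) against the mean of the other 5 arrays (x axis) for all 17687 genes and, marked, 57 ribosomal protein genes, with a line where both are equal. Canonical members lie between 10.58 and 13.24 on the x axis but between 5.40 and 12.25 on the y axis.

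The small subunit proteins had the larger median difference, -3.17 over 19 genes, and 15 of them were lower by at least 1 (78.9%). That share was smaller than the 84.6% of the large subunit proteins, and both stand beside 25.4% of all genes. The small subunit proteins were also brighter, with a median of 12.64 on sicontrol 1 against 12.11. RPS24, mutated in some patients with Diamond-Blackfan anaemia, read 12.84, 12.78 and 12.69 on the controls, 12.77 and 12.71 on siPGC1alpha 2 and 3, and 5.90 on siPGC1alpha 1. Its difference from the mean of the other 5 arrays was -6.86 on the log2 scale. RPS23, a protein of the decoding centre, read 12.96, 12.98 and 12.96, then 12.99 and 12.97, and 7.47 on replicate 1, a difference of -5.50. RPS29, a small zinc-binding protein, read 12.21, 12.11 and 12.16, then 12.17 and 12.21, and 6.81 on replicate 1, a difference of -5.37. For these genes the other 5 arrays lie close together and far from replicate 1. On that array the negative control probe sets had a median of 3.79, below RPS24, RPS29 and RPS23. The ERCC spike-in probe sets had a median of 6.50 and the unmapped transcripts one of 7.09, and RPS23 lay above both. Without a detection call it is not known how much of signals this low is background. For that reason no fold is given, and the order among the lowest members is not read. RPS6, the substrate of the S6 kinases that reports mTOR activity, is outside the rule for named genes and was chosen after its values were seen. It read 11.89, 11.83 and 11.83, then 11.87 and 11.88, and 7.78 on replicate 1, a difference of -4.08.

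Other small subunit proteins differed much less on the same array. RPS27, a zinc-finger protein, read 12.87, 12.69 and 12.70 on the controls, 12.71 and 12.70 on siPGC1alpha 2 and 3, and 12.25 on replicate 1, a difference of -0.49. RPS18, of the head of the small subunit, read 12.64, 12.66 and 12.62, then 12.65 and 12.65, and 12.08 on replicate 1 (-0.56). RPS14, whose loss of 1 copy underlies the anaemia of the 5q- syndrome, read 10.79, 10.87 and 10.84, then 10.78 and 10.86, and 10.10 on replicate 1 (-0.73). These genes kept most of their signal, in contrast to RPS24 on the same array. RPS10, which is ubiquitinated when ribosomes collide, read 12.86, 12.89 and 12.89, then 12.92 and 12.93, and 12.14 on replicate 1 (-0.75). FAU, outside the rule because of its symbol, read 10.80, 10.86 and 10.90, then 10.91 and 10.88, and 11.99 on replicate 1, higher by 1.12.

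The large subunit proteins had a median difference of -2.31 over 26 genes, and 22 were lower by at least 1 (84.6%). RPL14, which lies on the solvent side of the subunit, read 12.86, 12.89 and 12.86 on the controls, 12.88 and 12.88 on siPGC1alpha 2 and 3, and 6.40 on replicate 1, a difference of -6.47. RPL26, which lies near the exit of the peptide tunnel, read 12.42, 12.28 and 12.33, then 12.34 and 12.31, and 6.39 on replicate 1, a difference of -5.94. RPL6 read 12.15, 11.84 and 11.92, then 11.95 and 11.94, and 6.57 on replicate 1, a difference of -5.39. In each of them replicate 1 is more than 5 log2 units from every other array. RPL27 read 10.72, 10.53 and 10.54, then 10.56 and 10.53, and 5.40 on replicate 1, a difference of -5.18. RPL38, needed in the mouse for translation of Hox messages, read 13.24, 13.20 and 13.22, then 13.25 and 13.27, and 8.17 on replicate 1, a difference of -5.07.

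The acidic stalk protein RPLP1, which recruits elongation factors to the ribosome, was among the least lowered members. It read 11.96, 11.91 and 11.90 on the controls, 11.98 and 11.97 on siPGC1alpha 2 and 3, and 11.41 on replicate 1, a difference of -0.54. RPL9, at the base of the stalk, read 11.22, 11.10 and 11.07, then 11.06 and 11.21, and 10.58 on replicate 1 (-0.55). RPL21 read 10.93, 10.68 and 10.61, then 10.70 and 10.74, and 9.75 on replicate 1, and its difference of -0.98 lies just outside the limit of 1, while RPL17-C18orf32 at -1.02 lies just inside. RPL31 was the exception among the 45 canonical members, at 11.77 on replicate 1, above all other 5 arrays, a difference of 0.18. With quantile normalization RPL31 came to 0.90, RPS10 to -0.27 and FAU to 1.79. With the same scaling the differences of RPL9, RPLP1 and RPS14 on replicate 1 changed sign, to 0.40, 0.31 and 0.29, and those of RPS27, RPS18 and RPL21 came to -0.012, -0.0070 and -0.0055. The 29 canonical members between the named ones ranged from -4.89 to -1.07.

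The canonical members were spread more widely on this array, and so were other gene lists. Over the canonical members the signals had a standard deviation of 0.67 on the mean of the other 5 arrays and 1.76 on replicate 1. Over all 59 members, which include dim paralogs, it was 1.90 and 1.87. Of the lists described below, it rose from 1.08 to 2.05 for translation factors and from 1.18 to 1.78 for assembly factors. For the RNA polymerase I and III genes it rose from 0.93 to 1.74. For the mTOR and S6 kinase genes it rose only slightly, to 1.56. Over all genes it fell from 2.07 to 1.66. The median percentile of the canonical members was 99.5 on the mean of the other 5 arrays and 93.8 on replicate 1. Across the 45 canonical members, which share probe chemistry and library and are not independent replicates, any pair of the other 5 arrays correlated at r = 0.993 to 0.998. Replicate 1 correlated with them at 0.0987 to 0.142. Over all 59 members, whose signals cover a wider range, it correlated with them at 0.445 to 0.457.

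Among the start-site sequences shown above, the pyrimidine run occurs at both ends of the order by difference. RPS24, RPL14, RPL26 and RPS23 open with a pyrimidine run, and so do RPS14, RPS18, RPLP1, RPS27 and RPL31. RPL6, RPS29 and RPL9 have no run at the annotated first base. The 30 canonical members with the run had a median difference of -2.02 on replicate 1 (range -6.86 to 0.18), and the 11 without it had -3.17 (range -5.39 to -0.55). The ranges overlap almost entirely, and whether the difference goes with the run was not tested. Longer windows of RPS24, which read far lower, and RPL31, which lay higher, are given below, from 120 bases before to 20 bases after the first base, with capitals for the pyrimidine run and, in RPL31, for the ETS core that begins 53 bases before the start.
RPS24, chr10:78033743-78033882, plus strand: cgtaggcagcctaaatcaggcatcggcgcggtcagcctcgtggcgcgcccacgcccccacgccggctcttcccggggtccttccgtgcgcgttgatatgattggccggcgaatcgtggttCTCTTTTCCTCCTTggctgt
RPL31, chr2:101002169-101002308, plus strand: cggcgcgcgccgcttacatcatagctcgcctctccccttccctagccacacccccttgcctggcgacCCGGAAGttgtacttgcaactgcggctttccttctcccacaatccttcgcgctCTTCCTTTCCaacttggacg

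Paralogs did not follow their canonical partners closely on replicate 1. RPL36AL, a retrotransposed copy of RPL36A with nearly the same protein, read 11.64, 11.57 and 11.52 on the controls, 11.56 and 11.56 on siPGC1alpha 2 and 3, and 6.39 on replicate 1. Its difference was -5.18, compared with -3.38 for RPL36A. RPL7L1, a factor of ribosome assembly, differed by -4.10 and RPL7 by -3.13. In both pairs the paralog had the larger difference. The partner had the larger one for RPL26L1 (-2.39) and RPL26 (-5.94), and for RPL22L1 (-1.89) and RPL22 (-3.44). These paralogs were dimmer on the mean of the other 5 arrays, at 9.40 and 9.90 against 12.34 and 12.00. On replicate 1 RPL22L1 read 8.01 and RPL22 8.57. RPL26L1 read 7.01 and RPL26 6.39 there, signals too low to be ordered. RPS27L differed by -2.03 and RPS27 by -0.49, so that here the paralog again had the larger difference, from a mean of 8.05 against 12.73. Probe sets of such pairs may share transcripts, which leaves their separate values uncertain.

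Among the paralogs with tissue-restricted expression, RPL3L and RPL10L read higher on replicate 1 and RPL39L read lower. RPL3L read 9.83 there, 1.64 above the mean of the other 5 arrays, and RPL10L read 7.62, or 1.47 above it. RPL39L, expressed in testis and some tumours, read 6.61, 6.75 and 6.46 on the controls, 6.56 and 6.83 on siPGC1alpha 2 and 3, and 5.70 on replicate 1 (-0.94). The canonical partners of these genes, RPL3, RPL10 and RPL39, were not analysed here. RPS4Y1 and RPS4Y2, Y-linked copies of RPS4X, are counted among the members and their values are not given. RPS19BP1 read 8.44, 8.59 and 8.56 on the controls, 8.62 and 8.49 on siPGC1alpha 2 and 3, and 9.03 on replicate 1, a difference of 0.49. Each of the 3 readthrough genes was lower by at least 1, with RPL36A-HNRNPH2 at -3.00, RPS10-NUDT3 at -2.03 and RPL17-C18orf32 at -1.02. Their probe sets may also report the ribosomal protein gene they begin in.

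Genes that work beside the ribosomal proteins gave 0 calls in the limma fits with 6 and with 5 arrays. Of 29 translation initiation and elongation factors, 17 were lower by at least 1 on replicate 1 (58.6%, median -1.58), beside 25.4% of all genes and 73.9% of the genes with a mean of at least 10. The median translation factor had a signal of 11.12 on sicontrol 1, so that its list is nearer to the bright genes, and the lists differ in brightness among themselves. EIF3A and EIF3L, subunits of the initiation factor that binds the small subunit, differed by -4.73 and -4.17, whereas EIF5, which triggers GTP hydrolysis at the start codon, and EIF5A, which relieves stalled elongation, were higher by 0.92 and 0.77. Of 42 ribosome assembly and nucleolar factors, 27 were lower by at least 1 (64.3%, median -1.97). BRIX1, a large subunit assembly factor, differed by -5.22 and UTP4, of the small subunit processome, by -5.11. EMG1, an 18S ribosomal RNA methyltransferase, was higher by 1.74 and NHP2, of the pseudouridine-forming particles, by 1.03. Every one of these lists held genes on both sides.

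The other lists concern ribosomal RNA synthesis and the control of translation. Of 31 genes for RNA polymerases I and III and ribosomal RNA transcription, 15 were lower by at least 1 on replicate 1 (48.4%, median -0.82). The share of all genes was 25.4%. The largest differences were those of GTF3A, the 5S gene factor TFIIIA, at -5.50 and POLR3G, a polymerase III subunit, at -4.17. The polymerase III subunit POLR3B and the polymerase I factor TAF1C were higher by 1.20 and 1.14. Of 19 genes of mTOR and S6 kinase control, 7 were lower by at least 1 (36.8%, median -0.30), a share not far above the 25.4% of all genes. LARP1, which binds TOP messages, differed by -4.33, and RHEB, the activator of mTOR, by -3.70. RPS6KB1, an S6 kinase, was higher by 1.60 and RPS6KA2, an RSK kinase, by 1.34. Without replicate 1 the median differences of the 4 lists between the labelled groups were 0.017, -0.00025, 0.012 and 0.026, in the order given.

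**Figure D4:**
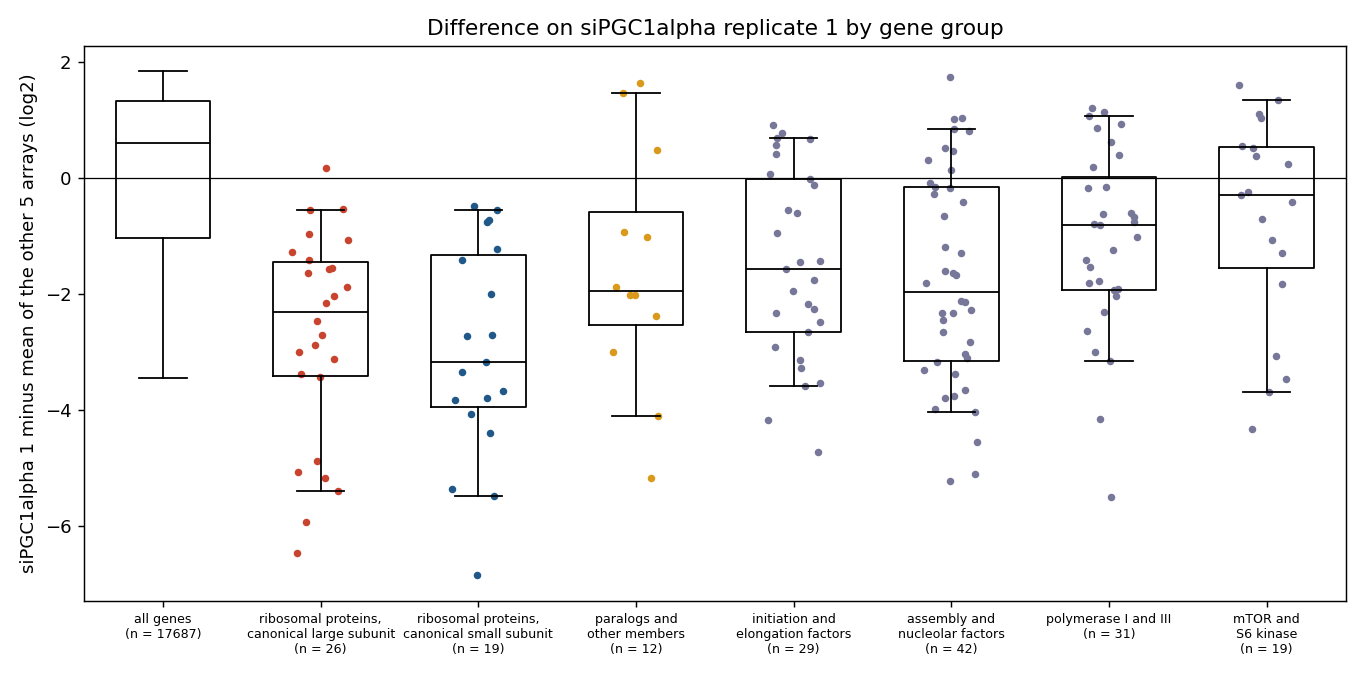
Difference of siPGC1alpha 1 from the mean of the other 5 arrays (y axis, log2) for all genes and for groups of genes (x axis), where points are genes, boxes hold the middle of each group with its median, and whiskers reach from the 5th to the 95th percentile. The medians are 0.61 for all genes, -2.31 and -3.17 for the large and small subunit proteins and -0.30 for the mTOR and S6 kinase genes.

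Within the 5 similar arrays, sicontrol 1 carried the members' highest signal more often than the others. It was the highest of the 5 in 26 of 59 members (44.1%), compared with 20.5% of all genes, and in 22 of the 45 canonical ones. Its median difference from the other 4 arrays was 0.038 over the members and -0.0096 over all genes. Sicontrol 3 was the lowest of the 5 in 25 members (42.4%), compared with 18.9% of all genes. The largest differences of sicontrol 1 were those of RPS27L (0.30), RPL21 (0.24), RPL6 (0.23), RPL7 (0.21) and RPL27 (0.18), chosen after their values were seen. For RPL27 it read 10.72 while the other 4 lay from 10.53 to 10.56. The pooled standard deviations of these genes, from 0.090 (RPL27) to 0.19 (RPS27L), contain the same deviation of sicontrol 1 and are no separate observation. The array was not tested against the others.

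**Figure D5:**
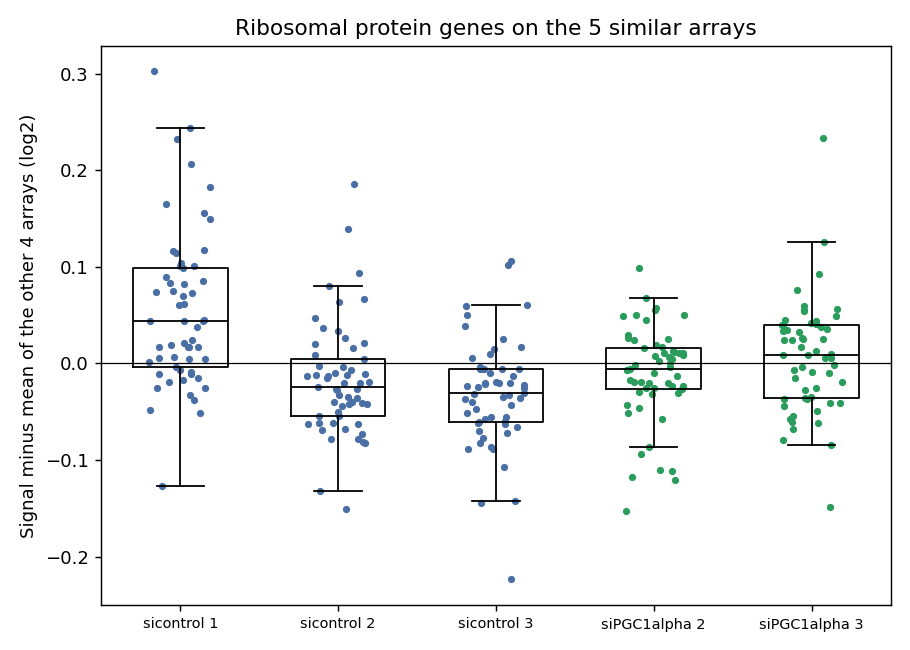
Signal of 57 ribosomal protein genes on each of the 5 similar arrays (x axis) minus the mean of the other 4 (y axis, log2), with points for genes, boxes for the middle of the genes and whiskers to the last gene within 1.5 box lengths. Points of sicontrol 1 lie highest, up to 0.30, and the boxes of siPGC1alpha 2 and 3 straddle 0.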

How the data were processed

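How the authors corrected, summarised and normalized the scans was not given in the sources used. From their range, the deposited values were taken to be log2 signals, 1 column per sample, because the labels name no scale. A further deposited table held 6 columns that match no sample, and these were not used. Of 24320 probe sets, a platform annotation gave 17709 with 1 symbol, 0 with several and 6611 with none. No detection call was used, and the number of arrays limits the precision.

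Members and lists were chosen with earlier results of these data known. Named are RPLP1, RPS24, PPARGC1A, the 8 canonical members with the largest and the 8 with the smallest difference on siPGC1alpha 1, the 4 with the smallest unadjusted p in each direction without that array (Y-linked genes left out), all paralogs with their measured partners, and 2 genes at each end of each companion list. The groups were compared with limma 3.58.1 (lmFit and eBayes) in R 4.3.3 over all 17687 genes, two-sided, with Benjamini-Hochberg adjustment at 0.05, on 6 arrays and without siPGC1alpha 1. The fit was tested on simulated data. Values of siPGC1alpha 1 are its signal minus the mean of the other 5 arrays, computed with pandas 2.3.3 in Python 3.11.15. Alternatives were quantile normalization, median centring, a filter on dim genes at the 25th percentile, trend and robust eBayes, the replicate number as a block, the mean of probe sets, the canonical proteins alone, the controls as reference, a limit of 2, and each array left out.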

Additional observations from a re-analysis of the deposited data

Results flagged for a closer look

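Signal outside the named genes was higher on siPGC1alpha replicate 1 than on any control array. The 63 ERCC spike-in probe sets, which report RNA added from outside the cell, had a median of 6.50 on it, whereas the highest control array was at 5.11. The 612 negative control probe sets had a median of 3.79 (highest control 3.44), the 551 unmapped transcript probe sets 7.09 (highest control 6.62) and the 3188 other unnamed probe sets 7.01 (highest control 6.50). The 2197 positive control probe sets went the other way, at 8.41 against 10.39 to 10.43 on the controls. Their part in the lower ribosomal protein signals of that array was not tested.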

How the results depend on the processing

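Members called stayed at 0 in the fits with 6 and 5 arrays under every alternative run, and the lowest adjusted p of a member ranged from 0.439 to 0.9998 (6 arrays) and from 0.679 to 0.9999 (5 arrays). The median member difference over 6 arrays was -0.57 with quantile normalization and -0.89 for the 46 canonical genes measured, FAU included, and leaving out 1 array gave -1.09 to -0.0003, the last without siPGC1alpha replicate 1. The median member difference on siPGC1alpha replicate 1 was -1.74 with quantile normalization and -2.71 for those 46 genes. Lower by at least 1 were 35 members with quantile normalization, beside 23.6% of all genes under that scaling. Of the 46 genes, 37 were lower by at least 1 in the deposited values, beside 25.4% of all genes. Leaving out 1 of the other arrays gave member medians of -2.17 to -2.13 and member counts of 45 to 46. Over 5 arrays the median difference lay between -0.011 and 0.022 and the median spread between 0.030 and 0.044 when 1 array was left out, with the lowest spread without sicontrol 1. Deviations of samples with the same replicate number correlated across genes at -0.25, -0.18 and -0.086 with 6 arrays, where siPGC1alpha 1 sets much of its group's deviations. With 5 arrays they correlated at 0.093 and -0.035, where siPGC1alpha 2 and 3 mirror each other around their own mean. Samples of different number reached 0.25 with 6 arrays and 0.12 with 5. This check can therefore neither show nor exclude pairing, and the main fits did not pair the samples. With the replicate block the median member difference was -0.72 (6 arrays) and 0.022 (5 arrays), 0 members were called, and 1334 genes instead of 786 had an unadjusted p under 0.05 in the 5-array fit. Dim paralogs such as RPL10L and RPL39L lie in a range where no detection call separates signal from background.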
